A study of Homo sapiens with 4 samples.

Results

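The 57 mitotic regulators described here are genes that carry cells through G2 and mitosis, from CDK1 and its cyclins to the kinetochore, the spindle and cytokinesis. They were taken by symbol from a list of G2 and mitosis genes, and a gene was kept if it had 10 or more counts in 2 or more libraries; all 57 were found and kept, of 20263 genes in the count tables. RNA-seq counts came from HCT116, an established human colorectal carcinoma line with the genotype given as WT, in 2 groups of 2 libraries. The treated group had received 30 µM HJ-23, described by the submitters as derived from piperine, and the control group 0.1% DMSO, each for 24 hours. The treatment field of the treated samples reads HJ-25 where their titles and the design text read HJ-23, and the name in the titles is used. Whether replicate libraries were grown as separate cultures is not stated, and p-values therefore measure library-to-library spread alone, which may be technical.

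Library totals ran from 29769568 to 34831207 counts. Epithelial markers were present in every library, with EPCAM at 254 to 272 CPM (counts scaled to 1e+06 per library after TMM scaling) and KRT8 at 1751 to 2489 CPM. The leukocyte genes PTPRC and CD3E and the fibroblast genes COL1A2, DCN, LUM and THY1 had 0 counts in all 4 libraries. Summed levels of the fibroblast, leukocyte and endothelial lists were 55.1 to 63.3, 35.2 to 51.6 and 1.13 to 1.63 CPM. They were carried mostly by COL1A1, by CD68, and by VWF together with KDR. KRT20, CDH17, VIL1 and LGALS4, markers of differentiated intestinal epithelium, were at or near 0, between 0 and 0.46 CPM. The summed epithelial list was at 2849 to 3109 CPM in 3 libraries and at 3922 CPM in HJ-23 replicate 2, which stood apart through KRT8 and KRT18. Across all genes the libraries also differed along transcript GC content, and those values stand beside the members' own.

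Entry into mitosis is driven by CDK1 bound to cyclin B, which WEE1 and PKMYT1 hold inactive by phosphorylation and the CDC25 phosphatases release. PLK1 and the Aurora kinases then direct spindle and kinetochore assembly, the spindle assembly checkpoint holds anaphase until every chromosome is attached, and CDC20 with the anaphase-promoting complex ends mitosis by marking securin and cyclin B for destruction. Most of these genes are transcribed together late in the cycle by the MuvB complex with MYBL2 and FOXM1. The DREAM form of that complex, which p53 engages through CDKN1A, keeps the same promoters silent in resting cells.

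The members were neither all lower nor all higher after HJ-23. MKI67, which codes for the Ki-67 antigen that coats mitotic chromosomes, was lower in both HJ-23 libraries, and so were CENPF, TOP2A, ANLN and PRC1. PLK1, CDC25B, MYBL2, FOXM1, CDC20 and CCNB1 were higher in both HJ-23 libraries than in both DMSO libraries. None of the 57 passed an adjusted p of 0.05 over all 14062 genes tested in edgeR's quasi-likelihood test, where 0.0853% of all genes passed (0.0284% lower and 0.0569% higher). The smallest adjusted p among the members was 0.0735, for MKI67. At an unadjusted p below 0.05 there were 9 members lower in HJ-23, against 5.25% of all genes, and 3 higher, against 6.77%. With DESeq2 2 members passed, MKI67 and ANLN, both lower, where 1.11% of genes with an adjusted p passed in that direction; 0 members passed as higher, where 1.19% of genes did. With a library left out, its group holds a lone library whose spread cannot be estimated. For those fits log2 fold changes alone are given below. In bulk RNA, fewer cells in mitosis and less mRNA per such cell cannot be told apart.

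Of the 57 members, 42 had a negative log2 fold change (HJ-23 over DMSO), against 49.0% of all genes tested, and the median was -0.25 against 0.01 over all genes. For 20 members both HJ-23 libraries lay below both DMSO libraries, where 21.2% of all genes did, and for 8 both lay above, where 24.8% did; the other 29 overlapped. The balance between the groups rested on which libraries were set against each other. Between the libraries numbered 1, 26 of 57 members (45.6%) were lower in HJ-23, against 46.7% of all genes, with a median log2 ratio of 0.02. The count was 44 for HJ-23 replicate 2 against DMSO replicate 1 (median -0.38), 44 for HJ-23 replicate 1 against DMSO replicate 2 (-0.23) and 42 for HJ-23 replicate 2 against DMSO replicate 2 (-0.57). These pairings share libraries and are not separate evidence. Within the groups, 41 members were higher in DMSO replicate 2 than in DMSO replicate 1, where 50.2% of all genes were. Likewise 41 were higher in HJ-23 replicate 1 than in HJ-23 replicate 2, where 49.7% of all genes were. The 57 genes summed to 4626 and 5471 CPM in the DMSO libraries (replicate 1, then 2, as in every pair of values below) and to 4663 and 4054 CPM in the HJ-23 libraries.

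**Figure D1:**
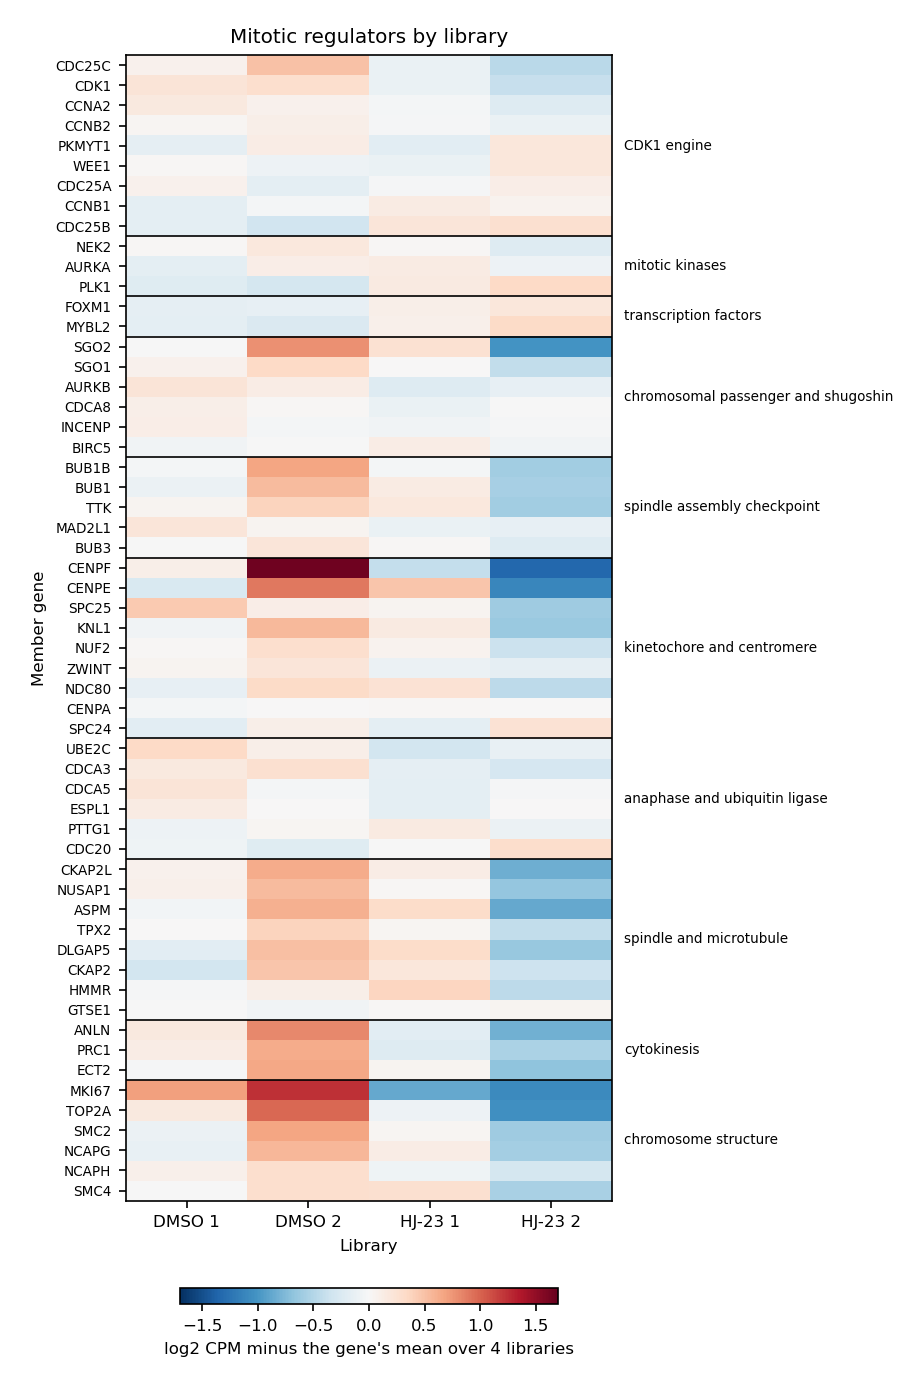
Heat map of the 57 members (rows, grouped by role and ordered by log2 fold change) in the 4 libraries (columns); colour is log2 CPM minus the mean of that gene over the 4 libraries, red above and blue below. DMSO replicate 2 is reddest and HJ-23 replicate 2 bluest over the spindle, kinetochore and chromosome genes, while MKI67 is blue in both HJ-23 libraries and PLK1 and CDC25B are red in both.

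Promoters of some members towards the ends of this range are shown because most mitotic genes carry the same pair of elements, the cell cycle genes homology region (CHR), which MuvB binds, and CCAAT boxes, bound by NF-Y. Sequences are the 250 bases before the start of the gene in RefSeq on GRCh38.p14, 5′ to 3′ on the strand of the gene. Capitals mark TTTGAA or TTCGAA (CHR), CCAAT, and TTTCGCGC or TTTGGCGC (an E2F site), on either strand. The first 2 genes had the most negative changes. PLK1 had the most positive change, and CDC20 was also higher in both HJ-23 libraries but was not the next by rank.
MKI67, chr10:128126424-128126673, minus strand: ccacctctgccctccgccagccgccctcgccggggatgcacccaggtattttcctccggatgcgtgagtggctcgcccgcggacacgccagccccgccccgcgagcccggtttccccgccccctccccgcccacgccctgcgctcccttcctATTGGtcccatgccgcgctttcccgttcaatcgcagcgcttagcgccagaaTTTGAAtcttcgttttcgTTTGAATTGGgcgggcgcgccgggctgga
CENPF, chr1:214602945-214603194, plus strand: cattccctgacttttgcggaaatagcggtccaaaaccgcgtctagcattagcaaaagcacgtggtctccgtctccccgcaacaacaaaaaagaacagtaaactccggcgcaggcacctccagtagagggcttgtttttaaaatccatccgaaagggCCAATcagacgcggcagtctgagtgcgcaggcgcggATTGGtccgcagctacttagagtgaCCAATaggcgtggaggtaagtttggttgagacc
PLK1, chr16:23678639-23678888, plus strand: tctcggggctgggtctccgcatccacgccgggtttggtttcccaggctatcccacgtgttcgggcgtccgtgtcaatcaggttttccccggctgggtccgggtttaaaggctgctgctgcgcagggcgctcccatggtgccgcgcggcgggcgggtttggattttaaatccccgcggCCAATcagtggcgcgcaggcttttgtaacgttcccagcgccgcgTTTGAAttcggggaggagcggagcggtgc
CDC20, chr1:43358731-43358980, plus strand: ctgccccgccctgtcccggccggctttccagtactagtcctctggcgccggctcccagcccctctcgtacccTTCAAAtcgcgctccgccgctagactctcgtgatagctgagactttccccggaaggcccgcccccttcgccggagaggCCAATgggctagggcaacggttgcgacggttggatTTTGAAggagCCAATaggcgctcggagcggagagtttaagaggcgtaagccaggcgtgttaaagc

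These letters were found at both ends of the range, but not in every member there. MKI67 had CHR matches that begin 47 and 29 bases before the start, the nearer sharing a base with a CCAAT match on the opposite strand. PLK1 had a CHR match 29 bases and a CCAAT match 73 bases before the start, and CDC20 had CHR matches at 178 and 65 bases and CCAAT matches at 100 and 55 bases. For MKI67 and CDC20, the bases checked after the start were not found in a GENCODE 29 transcript of the gene. Their distances therefore hold for the RefSeq start alone. CENPF had CCAAT matches at 94, 58 and 33 bases before the start and its CHR match in the transcribed part of the window. In windows of 300 bases, 250 before and 50 after the start, 33 of the 47 members with an entry held a CHR match (70.2%), against 16.4% of all 35116 promoters of that length. A CCAAT match was in 34 of the 47 (72.3%), against 34.6% of all promoters, and both were in 25 (53.2%) against 6.38%. The E2F letters were in 3 of the 47 (6.38%), against 1.15%. The 33 members with a CHR match had a median log2 fold change of -0.41, with 29 negative. The 14 without had a median of -0.19, with 8 negative. For CCAAT the median was -0.27 over the 34 with a match (26 negative) and -0.29 over the 13 without (11 negative). For the E2F letters it was -0.50 over the 3 with a match (2 negative) and -0.27 over the 44 without (35 negative). A relation of these letters to the changes was not tested. A match is a description of the letters and not of binding. CDC25B and MYBL2, which had higher log2 fold changes than CDC20, held none of the CHR, CCAAT or E2F letters in their windows.

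Among genes of chromosome structure, the log2 fold change was negative for all 6 (median -0.51). MKI67 (ENSG00000148773) was at 173.7 and 253.6 CPM in DMSO and at 58.4 and 50.5 CPM in HJ-23. The groups were far apart, with means of 213.7 ± 56.5 and 54.5 ± 5.61 CPM (SD, n = 2). The log2 fold change was -1.97 (SE 0.22), 3.92-fold lower, with an adjusted p of 0.0735 with edgeR and of 1.69e-13 with DESeq2. With edgeR and no filter on low counts it passed (adjusted p = 0.0272). With each library left out in turn, its log2 fold change stayed between -2.22 and -1.70. Only 28 of the 14062 genes tested had a lower log2 fold change.

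TOP2A (ENSG00000131747), topoisomerase II alpha, which untangles sister chromatids, was at 110.0 and 192.2 CPM in the DMSO libraries and at 92.03 and 47.7 CPM in the HJ-23 libraries. The groups did not overlap, but DMSO replicate 1 and HJ-23 replicate 1 lay close together, and the libraries differed 1.75-fold within DMSO and 1.93-fold within HJ-23. On the log2 scale the difference was -1.11 (SE 0.41; edgeR adjusted p = 0.397). It was -1.46 without DMSO replicate 1, -0.68 without DMSO replicate 2, and -1.68 or -0.74 when HJ-23 replicate 1 or 2 was dropped. The condensin subunits SMC2, SMC4, NCAPG and NCAPH, which compact mitotic chromosomes, had log2 fold changes from -0.58 (SMC2) to -0.23 (SMC4), and only NCAPH of the 4 had groups that did not overlap. NCAPG was at 65.2 and 105.5 CPM in DMSO and at 77.8 and 47.7 CPM in HJ-23, so each group held a high and a low library. Exons of SMC4 and NCAPG overlap those of neighbouring genes on the opposite strand (TRIM59 and IFT80, and LCORL), and without a known strand setting such reads cannot be told apart. The same holds for CCNA2, CDC25C, PKMYT1, PLK1, FOXM1, SGO2, SPC24, CDCA3, CKAP2L and ANLN, and CENPA and BUB1B share exon bases with a gene on their own strand. PLK1 shares 42 bases with ERN2, and 553 with an antisense gene that is not in the count tables. Other genes absent from the count tables overlap members as well. Among these are genes on the same strand that share 3181 bases with PRC1 and 1787 with NUSAP1.

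Cytokinesis genes were all 3 negative, with a median of -0.77. ANLN, anillin, which scaffolds the contractile ring, was at 128.4 and 201.6 CPM in DMSO and at 101.03 and 64.9 CPM in HJ-23. It had lower levels in both HJ-23 libraries and a log2 fold change of -0.99 (SE 0.30; edgeR adjusted p = 0.327), and it passed with DESeq2 (adjusted p = 0.0370). Without DMSO replicate 1 the change was -1.28, and without DMSO replicate 2 it was -0.65. PRC1, which bundles the antiparallel microtubules of the central spindle, was at 66.6 and 94.1 CPM in DMSO and at 52.3 and 41.9 CPM in HJ-23. Its groups did not overlap, with a log2 fold change of -0.77 ± 0.22 (SE; edgeR adjusted p = 0.310). ECT2, the exchange factor that activates RHOA at the cleavage furrow, overlapped between the groups (70.9 and 113.3 CPM against 74.5 and 44.7 CPM).

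**Figure D2:**
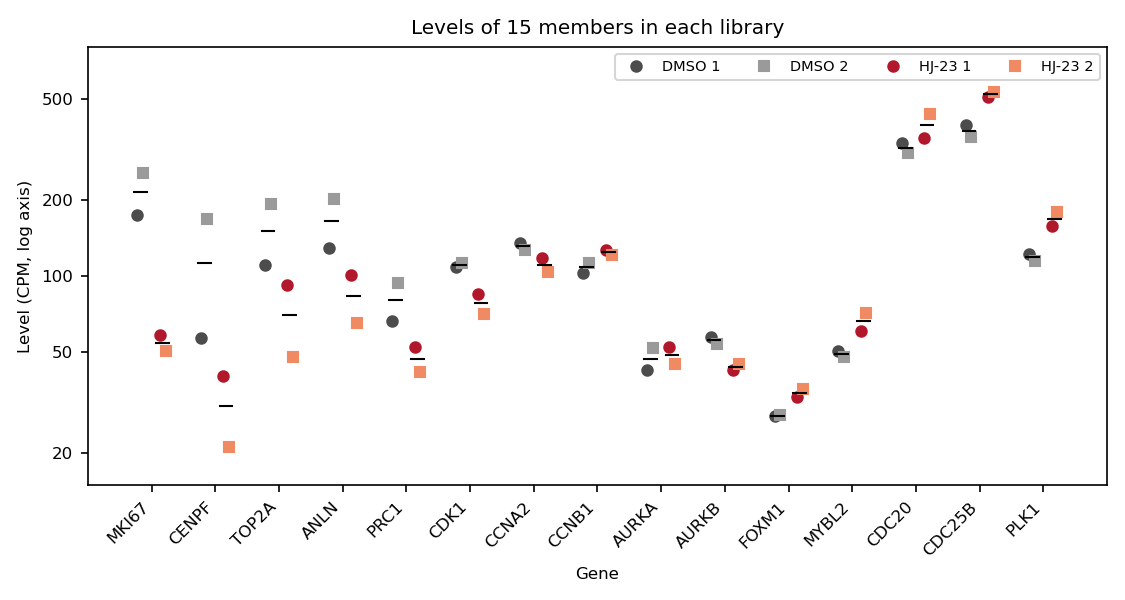
Levels in CPM (log axis) of 15 members in each library; grey symbols are DMSO and red symbols HJ-23, circles replicate 1 and squares replicate 2, and short bars are group means. MKI67 is at 173.7 and 253.6 CPM in DMSO and at 58.4 and 50.5 CPM in HJ-23, CENPF is spread from 57.2 to 168.2 CPM within DMSO, and PLK1 and CDC25B lie higher in both HJ-23 libraries.

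Kinetochore and centromere genes had 7 of 9 negative log2 fold changes and a median of -0.29. CENPF (ENSG00000117724), a large protein of the outer kinetochore that accumulates in G2, was at 57.2 and 168.2 CPM in DMSO and at 40.2 and 21.2 CPM in HJ-23. Its DMSO libraries differed 2.94-fold, more than DMSO replicate 1 differed from HJ-23 replicate 1. The log2 fold change of -1.87 had an SE of 0.63 (adjusted p = 0.386, edgeR). Without DMSO replicate 1 it was -2.45, and without DMSO replicate 2 it was -0.92. CENPE, the kinetochore motor that moves chromosomes to the spindle equator, differed 2.98-fold within HJ-23: it was at 30.4 and 67.9 CPM in DMSO and at 50.3 and 16.9 CPM in HJ-23. Of the Ndc80 complex, which grips microtubule ends, NDC80 and NUF2 (log2 fold changes of -0.18 and -0.29) overlapped between the groups, SPC25 was lower in both HJ-23 libraries (23.7 and 19.0 CPM against 18.1 and 11.5 CPM), and SPC24 had a log2 fold change of 0.09. CENPA, the histone H3 variant of centromeres, varied little, at 26.5 and 27.2 CPM in DMSO and at 27.5 and 27.4 CPM in HJ-23 (a log2 fold change of 0.03, SE 0.16). KNL1 and ZWINT, which join the kinetochore to the checkpoint, had log2 fold changes of -0.46 and -0.25.

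The 5 genes of the spindle assembly checkpoint were all on the negative side (median log2 fold change -0.38), and 4 of them overlapped between the groups. BUB1B, the checkpoint protein BubR1 that blocks CDC20, was at 50.9 and 82.9 CPM in DMSO and at 51.0 and 34.8 CPM in HJ-23, with DMSO replicate 1 and HJ-23 replicate 1 at the same level. Its log2 fold change was -0.64 (SE 0.30; edgeR adjusted p = 0.454), and its reads may be shared with the readthrough gene BUB1B-PAK6. Its change was -0.27 with DMSO replicate 2 dropped, and -0.42 or -0.96 with HJ-23 replicate 2 or 1 dropped. BUB1 and TTK, the kinases that start the checkpoint signal, had log2 fold changes of -0.43 and -0.38. MAD2L1, the MAD2 protein that captures CDC20, was at 102.6 and 91.97 CPM in DMSO and at 82.9 and 81.2 CPM in HJ-23, the only gene of the 5 whose groups did not overlap (log2 fold change -0.25, SE 0.14); with an offset for GC content and length, described with those properties, the change was -0.06. BUB3, which brings BUB1 and BUB1B to kinetochores, had a log2 fold change of -0.20, and of 0.08 with the offset. The offset took the longest transcript, of 5.47 kb for MAD2L1 and 7.83 kb for BUB3, and none was fitted with another length.

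Of the chromosomal passenger complex and the shugoshins, 5 of 6 genes had negative changes, with a median of -0.23. AURKB, the kinase of the complex that corrects wrong attachments, was at 57.6 and 54.0 CPM in DMSO and at 42.6 and 45.1 CPM in HJ-23. Both groups were tight and did not overlap, and the log2 fold change was -0.35 (SE 0.15; edgeR adjusted p = 0.434). Its partners INCENP, CDCA8 (borealin) and BIRC5 (survivin) had log2 fold changes between -0.11 and 0.06. SGO2, which protects centromeric cohesion, was at 34.6 and 59.6 CPM in DMSO and at 41.6 and 17.3 CPM in HJ-23; the groups overlapped, the HJ-23 libraries differed 2.41-fold, and the log2 fold change of -0.68 had an SE of 0.48. Dropping HJ-23 replicate 1 gave -1.47, and dropping HJ-23 replicate 2 gave -0.20. SGO1 had a log2 fold change of -0.41.

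Spindle and microtubule genes were negative for 7 of 8, with a median of -0.33, and the groups of 6 of the 8 overlapped. NUSAP1, which binds spindle microtubules near chromosomes, was at 80.7 and 110.1 CPM in DMSO and at 76.9 and 48.2 CPM in HJ-23 (change on the log2 scale -0.61, SE 0.27; edgeR adjusted p = 0.441). That change was -0.39 with DMSO replicate 2 dropped, and -0.33 or -1.003 with HJ-23 replicate 2 or 1 dropped. CKAP2L, a spindle protein, was at 22.6 and 33.1 CPM against 23.4 and 12 CPM, with overlapping groups and a log2 fold change of -0.65 (SE 0.36). It was -0.38 with DMSO replicate 2 dropped, and -0.27 or -1.23 with HJ-23 replicate 2 or 1 dropped. TPX2, the activator of AURKA on the spindle, had a log2 fold change of -0.37 (SE 0.21), and ASPM, which holds spindle poles together, one of -0.47 (SE 0.44). DLGAP5 and CKAP2, which stabilise spindle microtubules, had log2 fold changes of -0.30 and -0.19. HMMR was at 72.5 and 78.7 CPM in DMSO and at 94.9 and 54.1 CPM in HJ-23, which gave a log2 fold change of -0.02 from HJ-23 libraries that lay on either side of both controls; with the offset it was 0.04. GTSE1, a microtubule protein that also restrains p53, had a log2 fold change of 0.07, or -0.02 with the offset.

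Genes of the CDK1 engine were split, with 4 of 9 log2 fold changes negative and a median of 0.02 (-0.10 with the offset). CDK1 (ENSG00000170312), the mitotic kinase itself, was at 108.1 and 112.5 CPM in DMSO and at 85.2 and 70.8 CPM in HJ-23. The DMSO libraries agreed closely and the groups did not overlap (log2 fold change -0.50 ± 0.15 SE; edgeR adjusted p = 0.330). CCNA2, cyclin A2, which acts in S phase and G2, was at 134.9 and 126.7 CPM against 117.2 and 103.4 CPM (log2 fold change -0.25, SE 0.14), with some exon overlap with EXOSC9 on the opposite strand. CCNB1, cyclin B1, lay on the other side: it was at 103.1 and 112.9 CPM in DMSO and at 126.8 and 121.0 CPM in HJ-23. Both HJ-23 libraries were higher, by a log2 fold change of 0.20 ± 0.14 (SE; edgeR adjusted p = 0.576), while CCNB2, the second B-type cyclin, had one of -0.13.

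The 3 CDC25 phosphatases had log2 fold changes on both sides of 0. CDC25B, which starts CDK1 activation at centrosomes, was at 392.8 and 352.3 CPM in DMSO and at 508.2 and 533.9 CPM in HJ-23. Each group was tight and the HJ-23 libraries were higher, with a log2 fold change of 0.48 ± 0.14 (SE; edgeR adjusted p = 0.309), or 0.31 with the offset. CDC25C, the phosphatase that completes CDK1 activation, was at 20.5 and 27.5 CPM in DMSO and at 17.9 and 14.2 CPM in HJ-23 (a log2 fold change of -0.58, SE 0.22). CDC25A, which acts from G1 onward, had a log2 fold change of 0.08 and overlapped between the groups. The inhibitory kinases WEE1 and PKMYT1 overlapped too, with log2 fold changes of 0.08 and 0.02, the latter -0.25 with the offset.

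Of the mitotic kinases outside these complexes, PLK1 (ENSG00000166851), which drives mitotic entry, spindle assembly and cytokinesis, had the most positive log2 fold change of the 57. It was at 122.2 and 114.8 CPM in DMSO and at 157.1 and 178.2 CPM in HJ-23, with both HJ-23 libraries higher. The log2 fold change was 0.50 (SE 0.14), 1.41-fold, with an adjusted p of 0.310 with edgeR and of 0.173 with DESeq2, and 8.39% of all genes tested had a higher one. AURKA, the spindle pole kinase that activates PLK1, was at 42.5 and 51.7 CPM in DMSO and at 52.6 and 45.04 CPM in HJ-23, with overlapping groups (log2 fold change 0.05, SE 0.18) and a change of sign, to -0.08, without DMSO replicate 1 or HJ-23 replicate 1. NEK2, a centrosome-splitting kinase, had a log2 fold change of -0.19 (SE 0.16). The transcription factors of the program were both higher in HJ-23. FOXM1 was at 28.00 and 28.3 CPM against 33.5 and 35.8 CPM (log2 fold change 0.30 ± 0.16 SE; edgeR adjusted p = 0.481). MYBL2, which codes for B-MYB, was at 50.8 and 47.9 CPM against 60.8 and 71.7 CPM (log2 fold change 0.42 ± 0.16 SE; edgeR adjusted p = 0.389), and its change was 0.28 without HJ-23 replicate 2. With the offset the changes of FOXM1 and MYBL2 were 0.18 and 0.23.

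Genes that end mitosis were divided as well, with 4 of 6 log2 fold changes negative and a median of -0.17. CDC20, the activator of the anaphase-promoting complex, was at 334.2 and 305.0 CPM in DMSO and at 350.2 and 435.2 CPM in HJ-23. Both HJ-23 libraries were higher, DMSO replicate 1 and HJ-23 replicate 1 only narrowly so, with a log2 fold change of 0.30 ± 0.16 (SE; edgeR adjusted p = 0.487). Dropping HJ-23 replicate 2 gave 0.11, and dropping HJ-23 replicate 1 gave 0.43; with the offset the change was 0.16. UBE2C, the ubiquitin-conjugating enzyme of that complex, was at 126.0 and 106.6 CPM in DMSO and at 79.9 and 91.4 CPM in HJ-23 (a log2 fold change of -0.44 ± 0.16 SE; edgeR adjusted p = 0.374), lower in both HJ-23 libraries. PTTG1, securin, had a log2 fold change of 0.05 and ESPL1, the separase it inhibits, one of -0.15, and both overlapped between the groups. CDCA5 (sororin, which holds sister chromatids together) and CDCA3, which promotes mitotic entry, had log2 fold changes of -0.19 and -0.44.

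Per length of transcript the order of the levels was different from that in CPM. In DMSO the mean level was 179.9 CPM per kb of the longest protein-coding transcript for CDC20, 127.3 for UBE2C, 113.2 for PTTG1, 103.6 for CDC25B and 56.6 for CDK1. MKI67 and CENPF, with transcripts of 12.68 and 10.31 kb, were at 16.9 and 10.9 CPM per kb in DMSO and at 4.30 and 2.98 in HJ-23. The lowest were CDC25A at 3.28 and SMC2 at 3.52 CPM per kb in DMSO. A gene whose main transcript is shorter than its longest, which the counts do not show, would stand higher on this scale.

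**Figure D3:**
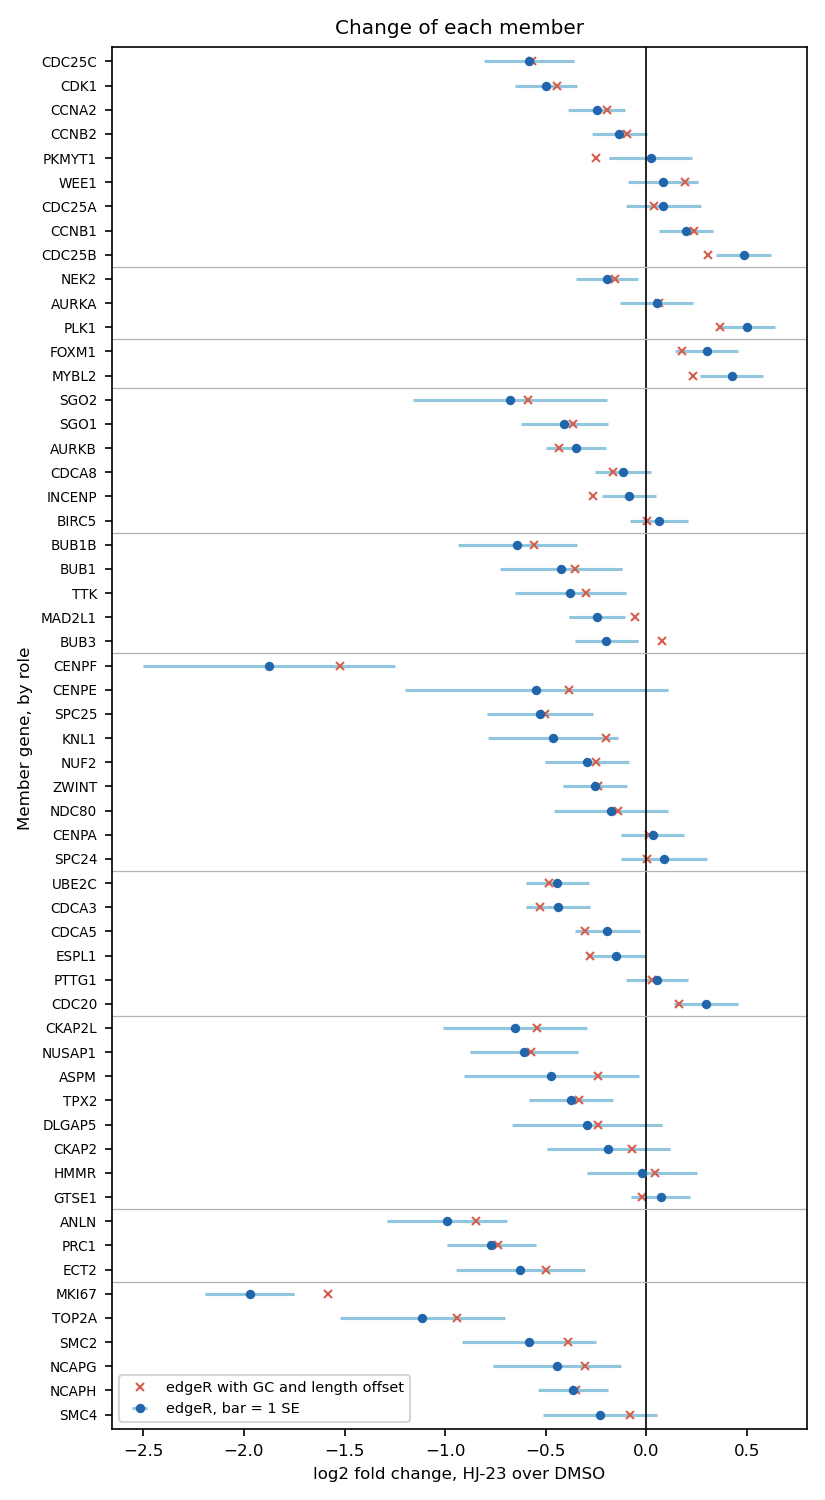
Log2 fold change (HJ-23 over DMSO) of each of the 57 members, by role; circles are the edgeR values with bars of 1 SE, and crosses the values with a per-library offset for GC content and length. MKI67 is at -1.97, and at -1.58 with the offset, and PLK1 at 0.50 and 0.37; CENPF and CENPE have the widest bars.

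Members with GC-poor transcripts, and those whose longest transcript was long, had the more negative log2 fold changes. Length and GC content had a Spearman correlation of -0.36 with each other across the members. Across the 57 genes the log2 fold change had a Spearman correlation of 0.55 with transcript GC content and of -0.41 with the length of the longest transcript, against 0.38 and -0.22 over the 13900 genes tested that had both properties. Genes are not replicates, and all points share the same 4 libraries. All 15 members with a GC content below 40% had negative changes, with a median of -0.46. Of all 1951 such genes 1358 were negative, with a median of -0.14. At 55% GC or more, 1333 of all 4756 genes were negative, with a median of 0.17. Of the 10 members there 4 were negative, with a median of 0.16. These 10 members included PLK1 (57.3%), CDC25B (59.3%), MYBL2 (60.5%), FOXM1 (55.6%) and CDC20 (57.9%), which had the most positive changes of the 57. CCNB1, which was also higher in both HJ-23 libraries, was at 43.2%. The 17 members with transcripts of 4 kb or more were all negative. The 12 of 4 to 8 kb had a median of -0.61, and the 5 of at least 8 kb one of -0.55. Among all genes, 2400 of 4303 were negative in the shorter class and 817 of 1119 in the longer. Their medians were -0.04 and -0.23. With the median length over the protein-coding transcripts of each gene in place of the longest, the correlation with length was -0.05, and that with GC content 0.57.

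The same relation appeared between libraries of the same group. The log2 ratio of DMSO replicate 2 to DMSO replicate 1 had a Spearman correlation of -0.61 with GC content across the members (-0.35 over all genes), and that of HJ-23 replicate 2 to HJ-23 replicate 1 one of 0.82 (0.63 over all genes). Members of low GC content were thus high in DMSO replicate 2 and HJ-23 replicate 1 and low in HJ-23 replicate 2. Below 40% GC the median log2 ratio within the group was 0.68 for DMSO replicate 2 over 1 and -0.78 for HJ-23 replicate 2 over 1, both farther from 0 than the -0.46 between the groups. The members were poorer in GC than the other genes, with a median of 43.2% against 49.9%. The part of this trend in the changes between groups was not tested, and an offset gives the values with the trend across genes in general fitted out. With an offset fitted to GC content and length across genes in each library, 42 members were again negative and the median was -0.25. The Spearman correlation with GC content was then 0.28 across the members and -0.02 over all genes. That with length was -0.26 across the members and 0.02 over all genes. The offset thus removed the members' relation to these properties only in part. MKI67, at 48.3% GC, had a log2 fold change of -1.58 (adjusted p = 0.0540, edgeR with the offset), CENPF one of -1.52 (adjusted p = 0.280), and PLK1 one of 0.37 (adjusted p = 0.153, both with edgeR). The log2 fold change of ASPM was -0.47 without the offset and -0.24 with it, that of KNL1 -0.46 and -0.20, and that of PRC1 -0.77 and -0.74.

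**Figure D4:**
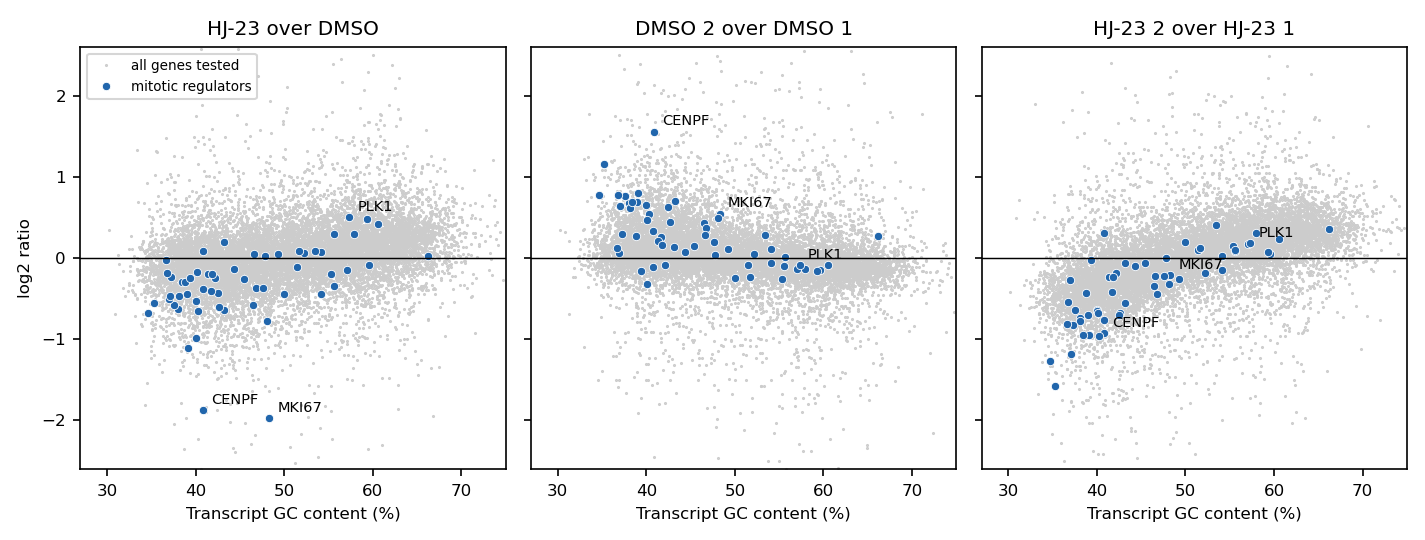
Log2 ratios (vertical axes) against transcript GC content in % for the 57 members (blue) and all genes tested (grey): the groups on the left, the DMSO libraries in the middle and the HJ-23 libraries on the right; 23, 61 and 41 genes lie beyond the vertical axis at 2.6. The members' ratios are higher at higher GC content on the left and right and lower in the middle, with Spearman correlations of 0.55, 0.82 and -0.61, and MKI67 lies at -1.97 on the left.

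Other genes of mitosis were read from the same fit in 9 lists with 122 genes, all tested. Of these 0 passed over all genes with edgeR; at an unadjusted p below 0.05 there were 14 lower and 5 higher, where 5.25% and 6.77% of all genes were. With DESeq2 1 passed as lower and 2 as higher, where 1.11% and 1.19% of all genes did. The log2 fold change was negative for 87, with a median of -0.10. All 12 mitotic kinesins, the motors that build and move the spindle, were negative, with a median of -0.44 (-0.29 with the offset). KIF20A, which carries the passenger complex to the midzone, was at 83.7 and 119.9 CPM in DMSO and at 71.6 and 60.6 CPM in HJ-23 (a log2 fold change of -0.62 ± 0.21 SE; edgeR adjusted p = 0.362), or -0.37 without DMSO replicate 2. Of cohesin and the remaining condensin subunits 12 of 13 were negative, with a median of -0.35, or -0.18 with the offset, and NCAPD3, a condensin II subunit, had a change of -0.49 (SE 0.14). In the centrosome list 12 of 13 were negative, with a median of -0.20. CKAP5, a microtubule polymerase, was at 102.3 and 203.1 CPM in DMSO and at 71.8 and 48.0 CPM in HJ-23 (a log2 fold change of -1.35 ± 0.37 SE; edgeR adjusted p = 0.310), and passed with DESeq2 (adjusted p = 0.00562). Its change was -0.80 without DMSO replicate 2 and -1.76 without DMSO replicate 1.

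The list of the anaphase-promoting complex, which also holds its coactivator FZR1, its ubiquitin-conjugating enzyme UBE2S and its inhibitor FBXO5, had 8 of 17 negative and a median of 0.01. Of its 14 subunits 6 were negative, with a median of 0.01. The log2 fold change of its largest subunit, ANAPC1, was -0.63 (SE 0.24), and -0.39 without DMSO replicate 2. Inner kinetochore genes had a median of -0.10 over 21, with 16 negative and CENPI at a log2 fold change of -0.69 (SE 0.19). The list of mitotic phosphatase control had one of -0.05 over 8 (0.04 with the offset), with the catalytic subunit gene PPP1CB at -0.53 (SE 0.15). The other cytokinesis genes had 4 of 8 negative, with the midbody kinase CIT at -0.55 (SE 0.15). Components of MuvB, DREAM and the E2F family had a median of -0.15 over 17, and 0.04 with the offset; RBL1, the pocket protein p107, had a log2 fold change of -0.70 (SE 0.25), and of -0.46 without HJ-23 replicate 2. The list of the G2 checkpoint and its p53 arm was split, with 6 of 13 negative. CDKN1A, the CDK inhibitor p21, was at 289.6 and 230.6 CPM in DMSO and at 468.4 and 660.0 CPM in HJ-23, higher in both HJ-23 libraries (log2 fold change 1.12, SE 0.22, adjusted p = 0.218 with edgeR and 9.44e-04 with DESeq2). Its log2 fold change ran from 0.82 to 1.32 with each library left out in turn. GADD45A, a stress gene that restrains CDK1 and was chosen after its values were seen, passed with DESeq2 as well (log2 fold change 0.92, SE 0.21, adjusted p = 0.0153 with DESeq2 and 0.255 with edgeR).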

How the data were processed

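The study measured RNA in 4 HCT116 libraries. The authors deposited whole-number counts per Ensembl gene, without normalization. FastQC, Trimmomatic, HISAT2, RSEM and bedtools appear in the submitters' processing notes; roles, versions, genome build, strand and counter were not given in the sources used here. Between 69.6% and 72.3% of the values from 1 to 8 in a library were even, against at most 50.8% of those above 50, so most fragments appear to be counted as 2 reads.

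Groups and replicate numbers came from sample titles. Symbols were looked up in a name table, which held 20148 of the 20263 identifiers, and then in GENCODE 29. The longest protein-coding transcript of each gene there gave length and GC content. The overlaps of 14 members with other listed genes came from all exons annotated there. RefSeq promoters matched 47 members.

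Counts were tested in edgeR 4.0.16 (R 4.3.3) with TMM factors of 0.983 to 1.03, filterByExpr, robust dispersions (biological coefficient of variation 19.6%, 2 residual degrees of freedom), and the quasi-likelihood F-test, Benjamini-Hochberg adjusted over 14062 genes, with 0.05 as the threshold. The SE is the absolute log2 fold change over the square root of F. The offset is a smooth of GC content and length fitted across genes in each library with mgcv 1.9.3. Alternatives were DESeq2 1.42.0, its size factors, other filters, the offset, a replicate block, and each library left out. The fits were also run on simulated counts. Those for edgeR and DESeq2 drew genes independently and without a GC trend, so they do not give error rates for these data.

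The members and lists were chosen with earlier results of these data known. Genes named with all values are 10 listed members, the 8 most negative and 5 most positive, those passing with edgeR or DESeq2, and the smallest p of each role group or list. Further members are given to account for all 57, and these were chosen after their values were seen.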

Additional observations from a re-analysis of the deposited data

How the results depend on the processing

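The members' median log2 fold change was between -0.28 and -0.25 with DESeq2's size factors, DESeq2, both other filters, the replicate block, and the GC and length offset with or without the block. It ran from -0.50 (without HJ-23 replicate 1) to -0.15 (without HJ-23 replicate 2) when each library was left out, with 38 to 46 members negative. Genes called over the whole table numbered 12, and 311 with DESeq2, 31 with no filter, 31 with the GC and length offset, and from 0 to 273 without each library. With the replicate number as a block they were 294. Members called were 0, and 2 with DESeq2, 1 with no filter and 3 with the replicate block. Other mitotic genes called were 0, and 3 with DESeq2 and 4 with the replicate block. The block's 3 members were TOP2A (adjusted p = 0.00253), ANLN (0.00968) and MKI67 (2.49e-11), and it also called CKAP5 (1.73e-04) and CDKN1A (0.00201); 0 genes passed with block and offset together. The differences between replicates 1 and 2 had a correlation of -0.18 between the groups across genes. Whether the numbers mark a shared culture or day is not stated, and this correlation cannot decide it. The differences also followed GC content with opposite signs. Over all genes the Spearman correlation was -0.35 for DMSO replicate 2 over 1 and 0.63 for HJ-23 replicate 2 over 1. The crossed pairing, added after seeing the data, called 966 genes, 16 of them members. AURKA, at 0.05, turned to -0.084 when DMSO replicate 1 was dropped and to -0.085 when HJ-23 replicate 1 was, and reached 0.18 without DMSO replicate 2. The cause of these differences was not tested. With 2 libraries a group and 2 residual degrees of freedom, the adjusted p rests on dispersions shared between genes; with a library left out, the lone library is assumed to vary like the other group.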
